A study of Mus musculus with 6 samples.

Results

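The mRNAs of 7 genes for caspases and for components of the mitochondrial route of apoptosis were followed in MLE12 cells whose citrate handling had been disturbed. They were *Apaf1*, *Casp9*, *Cycs*, *Diablo*, *Casp6*, *Casp2* and *Casp12*, taken by their names from the 54532 genes of the deposited count table. MLE12 cells are immortalized epithelial cells from mouse lung, and the labels give its strain as C57BL/6J. Control cells were infected with a Ctrl shRNA lentivirus, which the sample labels describe as an empty vector (Ctrl shRNA, 3 samples). The other cells were infected at the same time with an Idh3α shRNA lentivirus and a Slc25a1 shRNA lentivirus (knockdown, 3 samples). *Idh3a* encodes the catalytic alpha subunit of NAD-dependent isocitrate dehydrogenase and *Slc25a1* the mitochondrial citrate carrier. Each lentivirus was given at an MOI of 50, the number of infectious particles per cell, so the knockdown cells received 2 lentiviruses and the control cells 1. The medium was changed at 16 h, with another 80 h of culture before RNA was taken. No LPS or other inducer of cell death is given for these samples, and the labels do not say whether the 3 samples of a group came from separate cultures, so the p-values measure the spread between these samples only.

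In the mitochondrial route, cytochrome c leaves the space between the mitochondrial membranes and binds APAF1 in the cytosol. APAF1 then assembles into a wheel-shaped complex, the apoptosome, which recruits and activates caspase-9, and caspase-9 in turn cleaves the executioner caspases. DIABLO, also called SMAC, leaves the mitochondria with cytochrome c and relieves caspases of their inhibitors, the IAP proteins. Caspases are made as inactive precursors and the release of cytochrome c is a step in protein location, so mRNA levels describe the supply of these proteins and not whether they are active.

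Short stretches of the coding sequences are shown first. Each carries the residues by which the protein is recognized as a caspase or as another component of this set. They were read from the GENCODE M21 transcripts of GRCm38, 5′ to 3′. In the 4 caspases the capitals mark the codon of the catalytic cysteine, and each stretch is spliced from 2 neighbouring exons. These are exons 8 and 9 of 11 in *Casp2*, 5 and 6 of 7 in *Casp6*, 6 and 7 of 9 in *Casp9*, and 7 and 8 of 11 in *Casp12*. The catalytic codon is number 320 of 452 in *Casp2*, 146 of 276 in *Casp6*, 325 of 454 in *Casp9* and 298 of 419 in *Casp12*.
*Casp2*: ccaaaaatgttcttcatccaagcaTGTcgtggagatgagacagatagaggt
*Casp6*: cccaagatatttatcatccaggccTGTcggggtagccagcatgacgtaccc
*Casp9*: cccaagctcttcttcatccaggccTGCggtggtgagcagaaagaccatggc
*Casp12*: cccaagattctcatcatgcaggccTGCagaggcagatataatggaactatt

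The other 3 genes encode no protease. In *Apaf1* the capitals mark the loop that binds the nucleotide needed for assembly, in exon 4 of 27 (chr10:91077553-91077624, minus strand). In *Cycs* they mark the stretch from the first heme-binding cysteine codon to the heme-binding histidine codon, in exon 2 of 3 (chr6:50565580-50565642, minus strand). In *Diablo* they mark the 4 codons at the start of the mature protein, which bind IAP proteins once the mitochondrial targeting part has been removed. The *Diablo* stretch is spliced from exons 2 and 3 of 6, and its first marked codon is number 54 of 237.
*Apaf1*: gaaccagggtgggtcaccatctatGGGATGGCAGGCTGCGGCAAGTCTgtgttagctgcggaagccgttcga
*Cycs*: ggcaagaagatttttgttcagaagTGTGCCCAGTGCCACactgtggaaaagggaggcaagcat
*Diablo*: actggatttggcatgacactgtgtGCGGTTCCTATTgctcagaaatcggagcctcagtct

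The total count was 27273502 to 28535653 per control sample and 27715153 to 28112519 per knockdown sample. Ctrl shRNA replicate 2 stood apart from the other 5 samples. Counts were found on 16681 genes in it and on 19902 to 23147 in the others, 6.49% of its counts were on mitochondrially encoded genes against 1.57 to 1.80%, and its 100 most counted genes took 27.2% of the counts against 12.5 to 12.9%. Levels are therefore given for every sample as CPM, counts scaled to the TMM-adjusted library size, and differences are given for all 6 samples and again without Ctrl shRNA replicate 2. For *Idh3a* the controls held 79.8, 137 and 93.0 CPM (replicates 1, 2 and 3) and the knockdown samples 58.5, 57.9 and 55.5 CPM. For *Slc25a1* the values were 103, 98.7 and 108 CPM, then 68.9, 69.6 and 63.0 CPM. For both targets the groups did not overlap. Both were lower without Ctrl shRNA replicate 2 (edgeR adjusted p = 0.0142 and 0.00649), whereas neither passed an adjusted p of 0.05 with all 6 samples in edgeR (edgeR adjusted p = 0.254 and 0.104). DESeq2 called both lower with all 6 samples (DESeq2 adjusted p = 0.0193 and 5.37e-06). Of 10 alveolar type 2 markers, 4 stayed under 1 CPM in every sample, *Sftpd* at 0, and the 10 summed to 547 to 559 CPM in the controls and 480 to 512 CPM in the knockdown, with *Nkx2-1* alone at 277 to 343 CPM. Without Ctrl shRNA replicate 2, *Sftpc* was lower in the knockdown and *Etv5* higher (edgeR adjusted p = 0.0438 and 0.0312), and neither was called by edgeR with all samples (edgeR adjusted p = 0.315 and 0.166). DESeq2 with all samples called *Etv5* higher (DESeq2 adjusted p = 0.000998), and limma with sample quality weights called 2 of these markers higher and 2 lower. The 4 epithelial markers summed to 305 to 375 CPM and 344 to 367 CPM. All 3 endothelial and 4 of 5 immune markers were under 1 CPM in every sample, with *Ptprc* and *Adgre1* at 0, and the immune list summed to 1.92 to 2.48 CPM in the controls and 2.50 to 3.06 CPM in the knockdown. The 4 fibroblast markers summed to 346 to 1234 CPM and 317 to 345 CPM, nearly all from *Dcn*, which reached 1211 CPM in Ctrl shRNA replicate 2. *Pdgfra* stood at 2.38 ± 0.261 CPM (SD, n = 3) in the controls and 3.69 ± 0.244 CPM (SD, n = 3) after knockdown, with groups that did not overlap, and was not called by edgeR (edgeR adjusted p = 0.312). Limma with sample quality weights called 1 of the 4 higher. In bulk RNA, fewer cells of a type and less RNA per cell cannot be told apart.

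None of the 7 mRNAs was called higher or lower in the knockdown. With all 6 samples, 0 of 7 passed an adjusted p of 0.05 in edgeR, where 0.0653% of the 15307 genes tested did, and without Ctrl shRNA replicate 2 again 0 of 7 passed, where 1.79% of 15709 genes did. Other tests called more of all genes, but 0 of 7 members. DESeq2 called 2.71% of genes with all samples and 6.91% without Ctrl shRNA replicate 2, and limma with sample quality weights called 15.0%. At an unadjusted p under 0.05, edgeR passed 0 of 7 members with all samples, against 14.1% of all genes, and 0 of 7 without Ctrl shRNA replicate 2, against 19.9%. Without Ctrl shRNA replicate 1 it passed 3 of 7 (*Cycs*, *Casp12* and *Casp6*), against 24.1%. *Cycs* alone passed with library size only, against 7.80% of all genes, and without a count filter, against 10.2%. DESeq2 with all samples and limma with sample quality weights each passed 1 of 7 at that unadjusted level, against 10.5% and 34.8% of all genes. It was *Cycs* in both, with a negative log2 fold change (DESeq2 adjusted p = 0.167, limma adjusted p = 0.120). All 7 members were among the genes tested in edgeR, and their lowest count in any sample was 257. The groups did not overlap for 0 of 7 members with all samples, against 25.4% of all genes, and for 1 of 7 without Ctrl shRNA replicate 2, against 37.6%. The single member was *Casp2*.

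**Figure D1:**
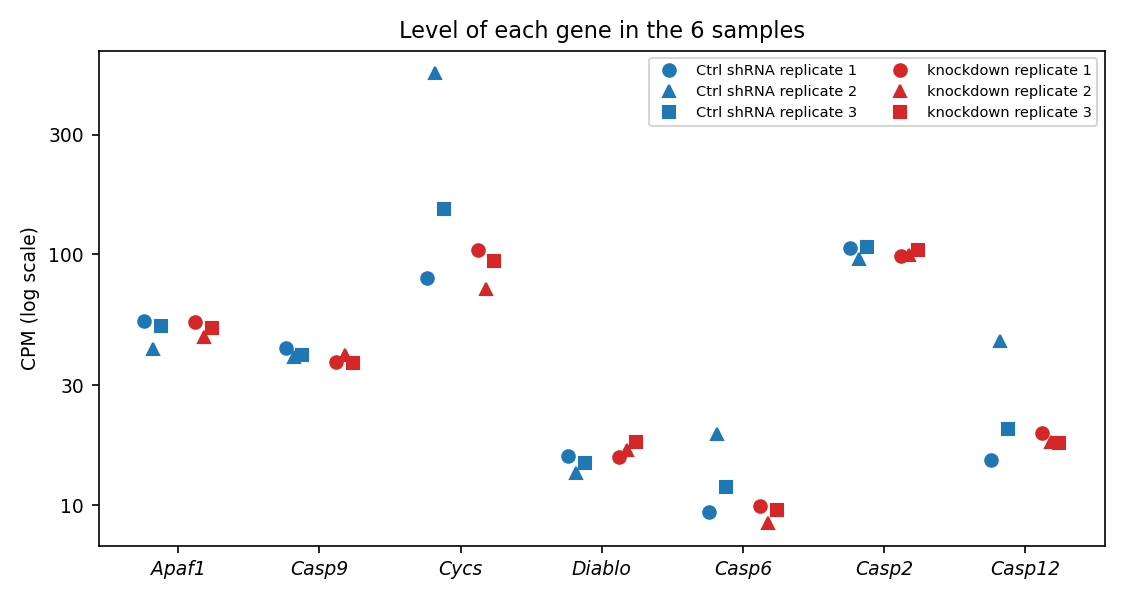
Level of each of the 7 genes in CPM (log axis) in the 3 Ctrl shRNA samples (blue) and the 3 knockdown samples (red), with circles, triangles and squares for replicates 1, 2 and 3. Ctrl shRNA replicate 2 (blue triangle) lies above all other samples for *Cycs*, *Casp12* and *Casp6*, and the 2 colours overlap for every gene.

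The scaffold and the initiator of the apoptosome were examined first. *Apaf1* (ENSMUSG00000019979, chr10:90989311-91082770, minus strand), the scaffold, stood at 54.2, 42.0 and 52.0 CPM in Ctrl shRNA replicates 1, 2 and 3. It stood at 53.8, 46.6 and 51.0 CPM in knockdown replicates 1, 2 and 3. The groups overlapped, and replicate 2 was the lowest of its group in both. The means were 49.4 ± 6.50 CPM (SD, n = 3) and 50.5 ± 3.61 CPM (SD, n = 3), for a log2 fold change of 0.03 (standard error, SE, 0.12, 95% interval -0.26 to 0.32, edgeR adjusted p = 0.914). The log2 fold change was -0.08 without Ctrl shRNA replicate 2 (SE 0.08, 95% interval -0.27 to 0.10, edgeR adjusted p = 0.606).

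*Casp9* (ENSMUSG00000028914, chr4:141793612-141815976, plus strand), the initiator caspase that binds APAF1, was among the steadiest of the 7 genes. It stood at 42.2, 39.0 and 39.6 CPM in the controls, compared with 37.3, 39.7 and 36.8 CPM after knockdown. The highest knockdown sample lay above the lower pair of controls, so the groups overlapped. Mean levels were 40.2 ± 1.71 CPM (SD, n = 3) and 37.9 ± 1.55 CPM (SD, n = 3), for a log2 fold change of -0.09 (SE 0.08, 95% interval -0.27 to 0.10, edgeR adjusted p = 0.573). It was -0.12 without Ctrl shRNA replicate 2 (SE 0.08, 95% interval -0.30 to 0.06, edgeR adjusted p = 0.435). For *Apaf1* and *Casp9* the intervals without that sample ran from 0.830 to 1.07 times and from 0.815 to 1.04 times the control level.

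The mRNAs of the mitochondrial proteins that trigger or permit caspase activation came next. *Cycs* (ENSMUSG00000063694, chr6:50562563-50566538, minus strand), which encodes somatic cytochrome c, an electron carrier of the respiratory chain and the trigger of APAF1 assembly, stood at 80.2, 527 and 152 CPM in Ctrl shRNA replicates 1, 2 and 3. In the knockdown it stood at 104, 72.5 and 94.0 CPM. Ctrl shRNA replicate 2 was far above every other sample, while Ctrl shRNA replicate 1 lay within the range of the knockdown samples. The means were 253 ± 240.1 CPM (SD, n = 3) and 90.2 ± 16.2 CPM (SD, n = 3), for a log2 fold change of -1.49 (SE 0.67, 95% interval -3.10 to 0.13, edgeR adjusted p = 0.359). Without Ctrl shRNA replicate 2 the control mean was 116 ± 50.5 CPM (SD, n = 2) and the log2 fold change -0.37 (SE 0.24, 95% interval -0.91 to 0.17, edgeR adjusted p = 0.418). This interval runs from 0.532 to 1.13 times the control level, the widest among the 7 genes.

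*Cycs* is also a gene whose reads are shared with copies elsewhere in the genome. Of the 3354 different 50-base words in its annotated transcripts, 877 (26.1%) were also found in transcripts of other genes, 847 of them in *Gm10053*, annotated as protein-coding. How reads that match both genes were divided is not given in the sources used here. *Gm10053* stood at 6.01, 42.2 and 13.9 CPM in Ctrl shRNA replicates 1, 2 and 3, compared with 6.75, 4.09 and 8.09 CPM after knockdown. As for *Cycs*, its highest sample was Ctrl shRNA replicate 2 and its second highest Ctrl shRNA replicate 3.

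*Diablo* (ENSMUSG00000029433, chr5:123509765-123524176, minus strand), the IAP antagonist, stood at 15.8, 13.5 and 14.7 CPM in the controls. The knockdown samples stood at 15.6, 16.5 and 17.8 CPM. The highest control lay just above the lowest knockdown sample. Its mean was 14.7 ± 1.15 CPM (SD, n = 3) in the controls and 16.6 ± 1.09 CPM (SD, n = 3) in the knockdown, a log2 fold change of 0.18 (SE 0.11, 95% interval -0.08 to 0.45, edgeR adjusted p = 0.423). It was 0.12 without Ctrl shRNA replicate 2 (SE 0.10, 95% interval -0.12 to 0.35, edgeR adjusted p = 0.569), or 0.920 to 1.28 times the control level. Of its 6253 different 50-base words, 2331 (37.3%) were also found in transcripts of other genes, 1231 of them in *B3gnt4*, which had no counts in any sample, and 1100 in *Gm49027*. *Diablo* overlaps the transcript *Gm49027* on its own strand over 12095 bases, with a mean of 35.5 counts per sample there against 444.7 for *Diablo*. A second transcript, named AC157931.1 in GENCODE and *Gm15751* in the deposited table, overlaps it on the other strand over 4247 bases, with a mean of 146.8 counts. Whether reads were counted by strand is not given in the sources used here, so the reads of these overlapping genes cannot be fully told apart.

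The executioner caspase of the set was lower on average in the knockdown, but within the spread of the samples. *Casp6* (ENSMUSG00000027997, chr3:129901425-129914103, plus strand), which encodes a protease that cleaves nuclear lamins, stood at 9.40, 19.2 and 11.9 CPM in Ctrl shRNA replicates 1, 2 and 3. It stood at 9.95, 8.47 and 9.58 CPM in the knockdown. Ctrl shRNA replicate 2 was far above the rest, while replicate 1 lay below 2 of the 3 knockdown samples. Group means were 13.5 ± 5.12 CPM (SD, n = 3) and 9.33 ± 0.768 CPM (SD, n = 3), for a log2 fold change of -0.53 (SE 0.27, 95% interval -1.18 to 0.13, edgeR adjusted p = 0.383). The log2 fold change was -0.20 without Ctrl shRNA replicate 2 (SE 0.14, 95% interval -0.51 to 0.12, edgeR adjusted p = 0.467), or 0.701 to 1.09 times the control level. This gene had 257 to 380 counts per sample, the fewest of the 7 in every sample but Ctrl shRNA replicate 2, where *Diablo* had 266.

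The other caspases of the set act outside the apoptosome. *Casp2* (ENSMUSG00000029863, chr6:42264985-42282508, plus strand), an initiator caspase activated in the PIDDosome, a complex of PIDD1 and the adaptor CRADD, stood at 106, 95.7 and 107 CPM in the controls. It stood at 98.3, 99.2 and 104 CPM in the knockdown. All 3 knockdown samples lay above Ctrl shRNA replicate 2 and below the other pair of controls. Means were 103 ± 6.37 CPM (SD, n = 3) and 100.4 ± 2.82 CPM (SD, n = 3), for a log2 fold change of -0.04 (SE 0.08, 95% interval -0.22 to 0.15, edgeR adjusted p = 0.823). It was -0.10 without Ctrl shRNA replicate 2 (SE 0.06, 95% interval -0.24 to 0.05, edgeR adjusted p = 0.429), or 0.846 to 1.03 times the control level.

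*Casp12* (ENSMUSG00000025887, chr9:5345430-5373032, plus strand), an endoplasmic reticulum-associated caspase of the inflammatory caspase cluster, stood at 15.1, 45.2 and 20.1 CPM in Ctrl shRNA replicates 1, 2 and 3. The knockdown samples stood at 19.3, 17.8 and 17.7 CPM, between Ctrl shRNA replicates 1 and 3. Its means were 26.8 ± 16.1 CPM (SD, n = 3) and 18.3 ± 0.928 CPM (SD, n = 3), for a log2 fold change of -0.55 (SE 0.40, 95% interval -1.51 to 0.41, edgeR adjusted p = 0.493). The sign turned without Ctrl shRNA replicate 2, to 0.04 (SE 0.13, 95% interval -0.25 to 0.34, edgeR adjusted p = 0.878), or 0.842 to 1.26 times the control level.

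**Figure D2:**
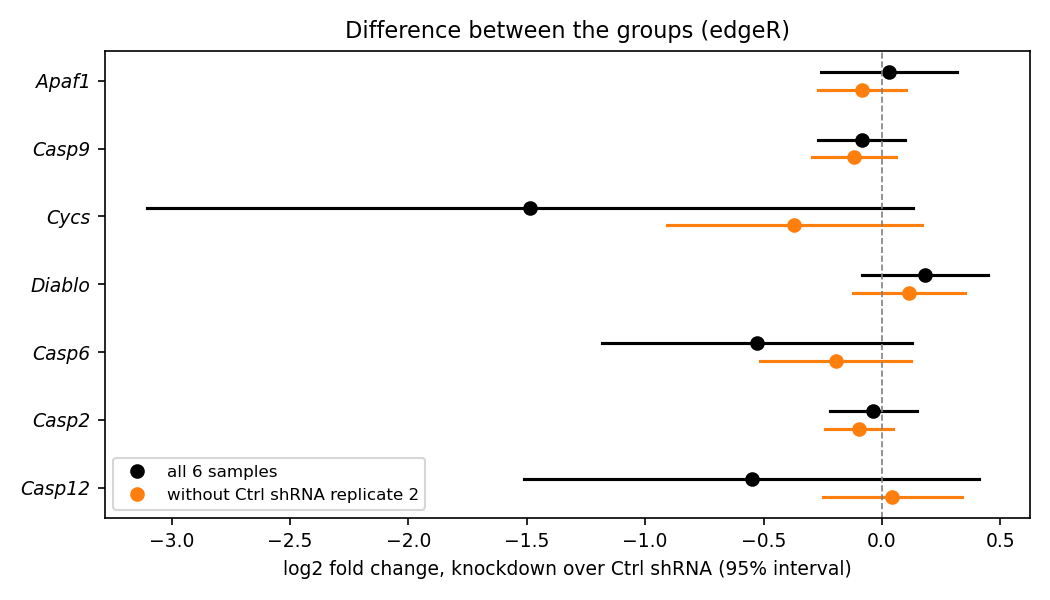
Log2 fold change of each gene, knockdown over Ctrl shRNA, from edgeR, with its 95% interval, for all 6 samples (black) and without Ctrl shRNA replicate 2 (orange). Every interval includes 0, and for *Cycs* the estimate moves from -1.49 to -0.37 without that sample.

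The 7 genes fell on both sides of the other samples in Ctrl shRNA replicate 2. *Cycs* stood in it at 5.61 times the median of the other 5 samples, *Casp12* at 2.54 times and *Casp6* at 2.01 times. *Apaf1* stood at 0.808 times that median, *Diablo* at 0.854, *Casp2* at 0.924 and *Casp9* at 0.985. This sample was the highest of the 6 for 3 of the 7 genes, against 34.4% of all genes tested, and the lowest for 3, against 38.7%. The 3 genes that were high in it also had the largest differences between the groups with all samples. Over all genes tested, the level in Ctrl shRNA replicate 2 against the other 5 went with exon length, with a median log2 difference of 0.70 for 1423 genes of at most 1000 bases, 0.00 for 4538 genes of 2000 to 4000 bases and -0.15 for 2284 genes over 8000 bases. *Cycs* has an exon length of 3404 bases and *Casp12* of 3840 bases, the shortest of the 7, while *Casp6* has 5584 and *Apaf1* 9028 bases. The part of length or RNA quality in the members' values was not tested.

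Ctrl shRNA replicate 3 leaned the same way for the same 3 genes. Its log2 difference from Ctrl shRNA replicate 1 was 0.91 for *Cycs*, 0.40 for *Casp12* and 0.32 for *Casp6*, and lay between -0.10 and 0.02 for the other 4 genes. For *Casp12* each knockdown sample lay between these controls, and for *Cycs* and *Casp6* 2 of the 3 did. Over all genes tested, the difference between these controls also went with exon length. Its median was 0.17 for genes of at most 1000 bases, 0.04 for those of 2000 to 4000 bases and -0.07 for those over 8000 bases.

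**Figure D3:**
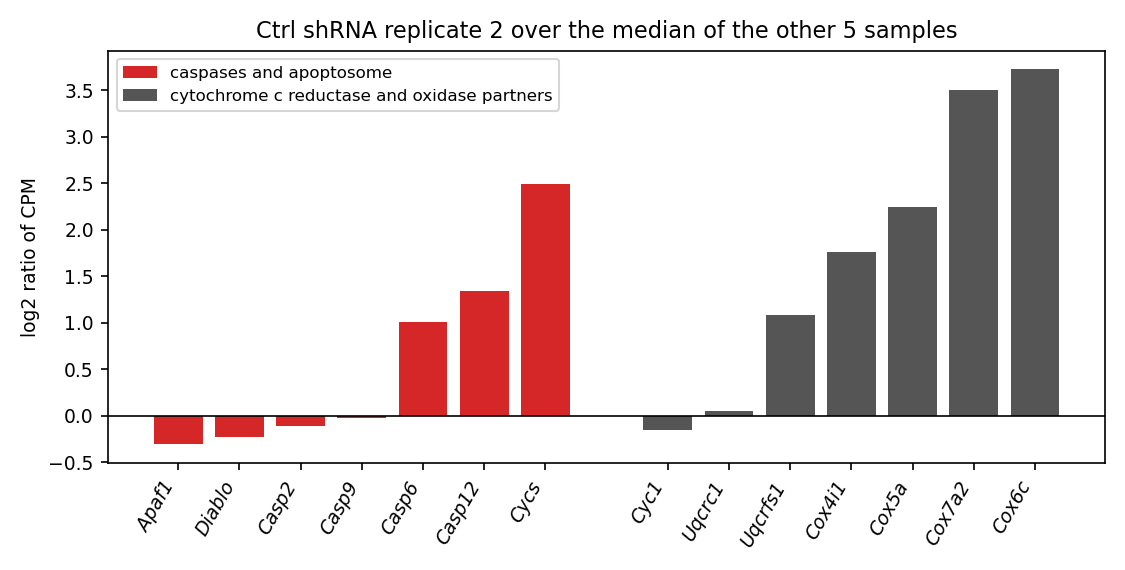
Log2 ratio of the CPM in Ctrl shRNA replicate 2 to the median of the other 5 samples, for the 7 genes (red) and for the 7 genes of the cytochrome c reductase and oxidase list (grey). *Cycs* stands highest among the red bars and *Cox6c* and *Cox7a2* among the grey, at 13.2 and 11.3 times the median on the linear scale.

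The levels of the 7 genes were compared with each other as FPKM, which is scaled to gene length. Without Ctrl shRNA replicate 2, *Cycs* was the most abundant at 21.3 to 44.9 FPKM (median 27.7, n = 5), followed by *Casp2* at 14.0 to 15.3 FPKM (median 14.7), *Casp9* at 7.11 to 8.17 FPKM (median 7.66) and *Apaf1* at 5.18 to 6.04 FPKM (median 5.81). *Casp12* followed at 3.95 to 5.28 FPKM (median 4.64), *Diablo* at 2.41 to 2.89 FPKM (median 2.57) and *Casp6* at 1.52 to 2.14 FPKM (median 1.72). Only the neighbours *Apaf1* and *Casp12* had overlapping ranges in these 5 samples, with *Apaf1* above *Casp12* in 5 of 5. With all 6 samples, *Cycs* reached 154 FPKM, *Casp12* 11.7 FPKM and *Casp6* 3.42 FPKM. The range of *Casp12* then overlapped those of *Casp9* and *Apaf1*, and the range of *Casp6* that of *Diablo*.

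For each member the gene with the most similar pattern over the 6 samples was sought among the other 15306 genes tested. The measure was the root mean square difference of the log2 CPM after centring each gene on its own mean, so genes that vary little are near many others. For *Cycs*, *Casp12* and *Casp6* the pattern was set largely by the high level in Ctrl shRNA replicate 2. No match was sought without that sample. *Cycs*, whose log2 CPM had an SD of 1.06 over the samples, was nearest to *Mrps21*, which encodes a mitochondrial ribosomal protein, at 0.0798. *Casp12* (SD 0.56) was nearest to *Chchd2* at 0.0300, which encodes a mitochondrial protein, and *Casp6* (SD 0.43) to *Cystm1* at 0.0444. The steadier genes had an SD of 0.07 to 0.14, with *Casp2* nearest to *Trp53i13*, *Casp9* to *Irx5*, *Apaf1* to *Hnrnpul2* and *Diablo* to *Tnrc6a*, at 0.0169 to 0.0246.

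The promoters were read from the RefSeq table for GRCm38.p6, from 250 bases before to 50 bases after the start of each gene, and all 7 genes had an entry. The core CGCATGCG, which the nuclear respiratory factor NRF-1 recognizes and which reads the same on both strands, was searched because *Cycs* is a textbook target of NRF-1. It was present in 517 of 27025 promoters (1.91%) and in 2 of the 7, those of *Cycs* and *Apaf1*, of which the first was highest and the second lowest in Ctrl shRNA replicate 2. For both genes the RefSeq start differs from that of the gene coordinates given above. The core begins 61 bases before the RefSeq start of *Cycs* and 112 bases before that of *Apaf1*. It is shown in capitals with 20 bases on each side, a stretch that lies at chr6:50566603-50566650 for *Cycs* and chr10:91082828-91082875 for *Apaf1*, both on the minus strand.
*Cycs*: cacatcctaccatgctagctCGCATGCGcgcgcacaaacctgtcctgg
*Apaf1*: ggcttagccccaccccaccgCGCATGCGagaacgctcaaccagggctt
The letters TTTCCCGC, TTTGGCGC or TTTCGCGC, sites of E2F factors, were found on either strand in 1.91% of promoters and among the 7 in *Casp2* alone. The CCAAT box, searched as CCAAT on both strands, was found in 37.9% of promoters and in 4 of the 7 (*Casp2*, *Casp12*, *Cycs* and *Diablo*). The letters TATAAA were found in 14.2% of promoters and in 0 of the 7.

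The rest of the pathway was described with 7 lists that hold 54 genes, of which 49 were tested. In edgeR, 0 of 49 were called higher and 0 lower with all 6 samples, and again 0 and 0 without Ctrl shRNA replicate 2. At an unadjusted p under 0.05 these were 2 higher and 3 lower, and 5 higher and 6 lower, beside 14.1% and 19.9% of all genes in both directions together. The median log2 fold change without Ctrl shRNA replicate 2 was -0.10 for the 7 members and -0.02 for all genes tested. It was -0.09 and -0.01 with all samples.

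Among the other caspases, 5 of 6 were tested. *Casp4*, an inflammatory caspase that binds lipopolysaccharide, stood at 16.0, 57.6 and 16.0 CPM in the controls, compared with 19.02, 21.98 and 22.89 CPM after knockdown. It had a log2 fold change of -0.48 with all samples (edgeR adjusted p = 0.648) and 0.40 without Ctrl shRNA replicate 2 (edgeR adjusted p = 0.108), where DESeq2 called it higher (DESeq2 adjusted p = 0.0467). *Casp8*, the initiator of the death receptor route, ranged from 52.7 to 64.0 CPM over the 6 samples. *Casp1* stayed below 1 CPM in every sample, and *Casp14* had at most 2 counts in any sample. The list median was -0.08 with all samples and -0.01 without Ctrl shRNA replicate 2.

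Among the regulators of the apoptosome, 6 of 7 were tested. *Apip*, which encodes an APAF1-interacting protein that also acts in methionine salvage, stood at 15.1, 27.6 and 19.5 CPM in the controls, compared with 12.2, 13.5 and 12.4 CPM after knockdown. The groups did not overlap, and the log2 fold change was -0.71 with all samples (edgeR adjusted p = 0.328) and -0.45 without Ctrl shRNA replicate 2 (edgeR adjusted p = 0.121), while limma with sample quality weights called it lower (limma adjusted p = 0.0143). *Aven*, an inhibitor of APAF1, had the largest value of the list without Ctrl shRNA replicate 2, 0.41 (edgeR adjusted p = 0.217), and stood at 0.25 with all samples (edgeR adjusted p = 0.521). *Hccs*, the lyase that attaches heme to cytochrome c, ranged from 37.4 to 44.6 CPM over the 6 samples, and testis cytochrome c (*Cyct*) was at 0 in all. The list median was -0.07 with all samples and 0.05 without Ctrl shRNA replicate 2.

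Among the 6 genes of the PIDDosome and the death-domain adaptors, *Pidd1* reached 27.9 CPM and *Cradd* 8.86 CPM, both in Ctrl shRNA replicate 2. *Cradd* and *Cflar*, an inhibitor of caspase-8, had the largest and the smallest values without Ctrl shRNA replicate 2, 0.24 and -0.29 (edgeR adjusted p = 0.763 and 0.145). With all 6 samples *Cradd* had the opposite sign, at -0.48, and *Cflar* stood at -0.14 (edgeR adjusted p = 0.693 and 0.623). The list median was -0.11 with all samples and 0.05 without Ctrl shRNA replicate 2. *Tradd* was called lower by limma with sample quality weights alone (limma adjusted p = 0.0360).

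The IAP family holds the proteins that bind and restrain caspases, and 6 of its 9 genes were tested. *Birc3* stood at 7.07, 6.28 and 4.92 CPM in the controls, compared with 9.21, 10.1 and 10.6 CPM after knockdown. All knockdown samples lay above all controls. Its log2 fold change was 0.71 with all samples (edgeR adjusted p = 0.258) and 0.72 without Ctrl shRNA replicate 2 (edgeR adjusted p = 0.0852). DESeq2 called it higher with all samples and without that one (DESeq2 adjusted p = 0.0319 and 0.0128), as did limma with sample quality weights (limma adjusted p = 0.00868). *Xiap*, which inhibits caspase-9 directly, ranged from 96.0 to 112 CPM, and its log2 fold change was -0.09 with all samples (edgeR adjusted p = 0.598) and -0.15 without Ctrl shRNA replicate 2 (edgeR adjusted p = 0.262). The median of the family was 0.04 in both fits.

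The list of IAP antagonists and other death factors gave no call among 6 genes in edgeR, DESeq2 or limma with sample quality weights. *Htra2*, a protease that binds IAP proteins as DIABLO does, ranged from 65.8 to 81.1 CPM. *Aifm1* and *Endog*, a flavoprotein and a nuclease of mitochondria, had the largest and the smallest values without Ctrl shRNA replicate 2, 0.08 and -0.19 (edgeR adjusted p = 0.526 and 0.670). With all 6 samples these were 0.18 and -0.52 (edgeR adjusted p = 0.401 and 0.425). The list median was -0.05 with all samples and -0.06 without that sample.

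Of the 13 caspase substrates and executors, 11 had a positive log2 fold change with all samples and 10 without Ctrl shRNA replicate 2, with medians of 0.18 and 0.09. Over all genes tested, 7460 of 15307 and 7434 of 15709 were positive. None was called in edgeR or DESeq2. Limma with sample quality weights called *Parp1*, *Acin1* and *Pak2* higher (limma adjusted p = 0.0458, 0.0259 and 0.0193), which encode a DNA repair enzyme, a chromatin condensation factor and a kinase. These are 3 of 13, beside the 15.0% of all genes that this test called. *Gsdme*, which encodes a pore-forming protein, and *Xkr8*, a lipid scramblase, had the largest and the smallest values without Ctrl shRNA replicate 2, 0.28 and -0.19 (edgeR adjusted p = 0.348 and 0.370). With all 6 samples *Gsdme* stood at 0.01 and *Xkr8* had the opposite sign, at 0.19 (edgeR adjusted p = 0.987 and 0.836).

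The partners of cytochrome c in the respiratory chain were the list with the lowest median, -0.94 with all samples and -0.13 without Ctrl shRNA replicate 2. *Cox6c*, a subunit of cytochrome c oxidase, stood at 115, 1544 and 383 CPM in the controls, compared with 117, 75.8 and 122 CPM after knockdown, so replicate 1 of the controls lay among the knockdown samples, as for *Cycs*. Its log2 fold change was -2.70 with all samples (edgeR adjusted p = 0.339) and -1.25 without Ctrl shRNA replicate 2 (edgeR adjusted p = 0.156). *Cox5a*, another subunit, had the largest value of the list without that sample, 0.14 (edgeR adjusted p = 0.453), and the opposite sign with all samples, at -1.10 (edgeR adjusted p = 0.426). *Cox4i1* moved from -0.94 to -0.17 (edgeR adjusted p = 0.384 and 0.486). DESeq2 with all samples called *Cox6c* and *Cox7a2* lower (DESeq2 adjusted p = 0.0212 and 0.0465), and so did limma with sample quality weights (limma adjusted p = 0.0289 and 0.0358). Without Ctrl shRNA replicate 2, DESeq2 called 0 of the 7. *Cyc1* and *Uqcrc1*, subunits of the reductase that hands electrons to cytochrome c, ranged from 106.5 to 129 CPM and from 145 to 170.0 CPM over the 6 samples. Another subunit, *Uqcrfs1*, stood at 249 CPM in Ctrl shRNA replicate 2 and at 109.5 to 135 CPM in the other 5 samples. Its log2 fold change was -0.52 with all samples and -0.13 without Ctrl shRNA replicate 2 (edgeR adjusted p = 0.395 and 0.452).

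**Figure D4:**
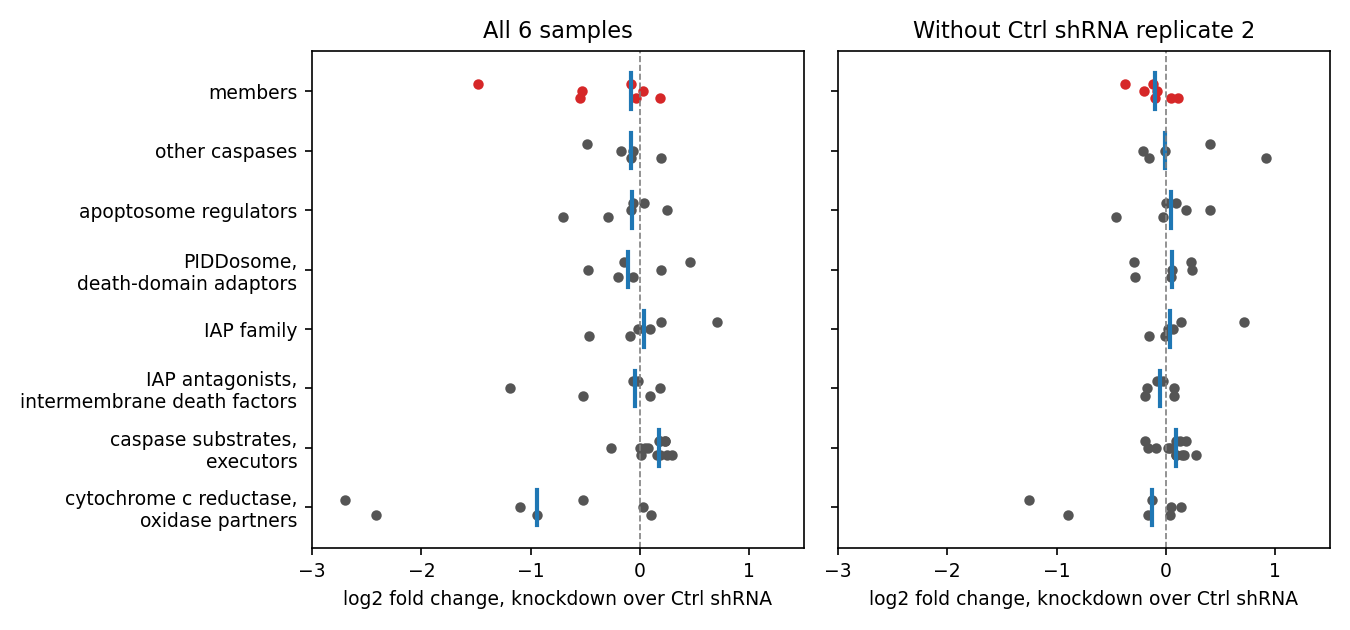
Log2 fold change, knockdown over Ctrl shRNA, of each tested gene (points) and the median (blue bar) for the 7 members (red) and the 7 pathway lists (grey), with all 6 samples (left) and without Ctrl shRNA replicate 2 (right). The median of the cytochrome c reductase and oxidase list moves from -0.94 to -0.13, and that of the members from -0.09 to -0.10.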

How the data were processed

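Gene expression was measured by RNA-seq in MLE12 cells, in 3 samples per group, grouped by their labels. The authors deposited whole-number read counts per gene without normalization, and FPKM values, scaled by gene length and a library size of their own. The submitters' processing notes name HISAT2 2.0.5, StringTie 1.3.3b, featureCounts 1.5.0-p3 and the build mm10, and the labels also name a Trinity assembly. The use of strand and the treatment of reads with several matches are not given in the sources used here. Of 54532 genes, 54409 were in GENCODE M21 (GRCm38) and 53499 of these (98.3%) had the same start and end, as had all 7 members. All sample columns were used (0 left out).

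The main test was edgeR's quasi-likelihood F-test (edgeR 4.0.16, R 4.3.3) on genes kept by filterByExpr, with TMM factors, no covariate and Benjamini-Hochberg adjustment over all genes tested (threshold 0.05). CPM values use these factors, and 95% intervals come from the same fit. DESeq2 1.42.0, limma 3.58.1 (voom with sample quality weights, or log2(FPKM + 1) and log2(FPKM + 0.1) for genes of at least 1 FPKM in 3 samples), other scaling factors, other count filters, a replicate block and the removal of each sample were alternatives. The members, the lists and the alternatives were chosen with earlier results of these data known. The text names every member, both targets, for each list the genes with the largest and the smallest change without Ctrl shRNA replicate 2, and the gene nearest in pattern. Some items under this rule are not reported here. *Gm10053*, *B3gnt4*, *Gm49027*, *Gm15751* and the list genes called by other tools were named after their values were seen, and some genes of the lists are named for their level. *Septin4* is written as a date in the file and was matched by its identifier.

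Tested on simulated counts with 200 genes changed 2-fold, edgeR recovered 79 of 200 with 11 false calls among 15307 genes at the spread of all samples, where DESeq2 recovered 157 with 74 false calls and limma on log2 values 0 with 0. edgeR recovered 196 with 20 false calls among 15709 genes at the spread without Ctrl shRNA replicate 2, DESeq2 198 with 28 and limma on log2 values 192 with 8. The simulated counts gave each gene the same spread in every sample, without a deviating sample like Ctrl shRNA replicate 2. The limma fit on them had no sample quality weights. These rates therefore describe the simulated counts and are not error rates of the calls in these data. Replicates differed by more than the sampling noise (chi-square per degree of freedom 5.67 to 454), and each was counted once. A permutation of 3 samples against 3 cannot give a two-sided p under 0.1.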

Additional observations from a re-analysis of the deposited data

How the results depend on the processing

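None of the 7 members passed an adjusted p of 0.05 in edgeR or in any of the 16 alternatives. Of the 112 member values in these alternatives, 104 kept the sign and 8 changed it, all without a call. With library size only, the log2 fold change was 0.12 for *Casp2* and 0.083 for *Casp9*, and the median of all genes was 0.16 instead of -0.01, so both lay below it. *Casp12* was 0.044 without Ctrl shRNA replicate 2 and 0.051 with DESeq2 without that sample, and ran from -0.83 to 0.044 over the removals of 1 library each. *Apaf1* was -0.015 in limma with sample quality weights, -0.015 without knockdown replicate 1 and -0.076 with DESeq2 without Ctrl shRNA replicate 2, and ran from -0.083 (without Ctrl shRNA replicate 2) to 0.11 over those removals. Adjusted p over the 17 fits ran from 0.120 to 0.675 for *Cycs* and from 0.146 to 0.698 for *Casp6*, and its lowest value was 0.207 for *Casp12*, 0.214 for *Casp2*, 0.257 for *Diablo*, 0.295 for *Casp9* and 0.606 for *Apaf1*.

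Over all genes, edgeR called 9 higher and 1 lower. The counts were 214 and 139 with DESeq2, 1327 and 971 in limma with sample quality weights, 1 and 0 with library size only and 492 and 332 with DESeq2 without Ctrl shRNA replicate 2. Lower genes numbered 3 without a count filter and 3 in limma on log2(FPKM + 1) and on log2(FPKM + 0.1). Leaving out 1 library gave 0 to 175 higher and 0 to 106 lower, the upper ends without Ctrl shRNA replicate 2. Without Ctrl shRNA replicate 1 there were 1 and 0, and without any of the other 4 libraries 0 and 0. With the replicate block edgeR called 0 and 0 genes, and 1133 passed at an unadjusted p under 0.05. Same-numbered samples showed little shared deviation (correlations -0.16, -0.09 and 0.04). With 3 samples per group and Ctrl shRNA replicate 2 far from the others, these values cannot decide whether same-numbered samples shared a batch or culture. Of 47 listed pathway genes tested with DESeq2, 1 was called higher and 2 lower, beside 2.71% of all genes. Limma with sample quality weights called 4 higher and 5 lower of 49, beside 15.0% of all genes. DESeq2 without Ctrl shRNA replicate 2 called 2 higher and 0 lower of 47, beside 6.91%. The biological coefficient of variation was 0.263 over the 6 samples and 0.102 once Ctrl shRNA replicate 2 was removed, which limits what could be called with all 6.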
